A study of Arabidopsis thaliana with 9 samples.

Results

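The genes described here are those of the early flavonoid pathway and its flavonol branch in Arabidopsis thaliana: the enzymes CHS, CHI, F3H, F3'H (TT7), FLS1, UGT78D1 and UGT78D2 and the regulators MYB12 and MYB111. They were chosen by locus, through the platform annotation or the locus column of the authors' table, and probe sets shared by related genes were left out. Of the 9 loci, 7 had a named probe set, out of 14754 named genes in all. MYB12 (AT2G47460) and MYB111 (AT5G49330) had none and were not analysed here. The series measured inflorescence stems of Columbia-0 plants, aged 1.5 months and kept in cycles of 16 h light and 8 h dark, on an Affymetrix array that reads each transcript with a set of short probes. Its 3 groups are an HCT-RNAi line, in which RNA interference is directed at the lignin enzyme HCT, the mutant ccr-1, with loss of function in the lignin enzyme CCR1, and the wild type (WT), with 3 arrays each. The promoter of the RNAi construct, the number of independent lines and whether replicate arrays came from separate plants are not stated in the labels. The p-values therefore reflect only the spread among these arrays, and that spread may be technical.

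Flavonoids and lignin share their first steps, from phenylalanine to p-coumaroyl-CoA. HCT carries p-coumaroyl-CoA toward lignin and CCR1 acts later on the same route, whereas chalcone synthase (CHS) draws p-coumaroyl-CoA into flavonoids. Chalcone isomerase (CHI) closes the ring, F3H makes dihydroflavonols and F3'H adds a hydroxyl group to the B ring. At the dihydroflavonol the route divides: FLS1 leads to flavonols such as kaempferol and quercetin, and DFR leads to anthocyanins and proanthocyanidins. UGT78D1 and UGT78D2 attach rhamnose and glucose to flavonols, and UGT78D2 also acts on anthocyanidins. In seedlings MYB11, MYB12 and MYB111 switch on the early genes and FLS1, while the later anthocyanin genes depend on PAP1-type MYB factors together with bHLH factors such as TT8.

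Each line had less transcript of the gene it targets. For HCT (AT5G48930) the arrays gave log2 intensities of 12.43, 12.54 and 12.52 in WT, 9.00, 9.00 and 8.90 in HCT-RNAi, and 11.97, 11.94 and 11.94 in ccr-1. CCR1 (AT1G15950) stood at 11.87, 11.85 and 11.90 in WT, at 11.12, 11.15 and 11.07 in HCT-RNAi, and at 10.01, 10.17 and 10.02 in ccr-1. Replicate arrays correlated at 0.997 to 0.999 over 22746 probe sets. All 5 named stem xylem markers (7 listed) had detection calls and were called present on the 9 arrays. Their summed intensity was lower in both lines than in WT, as given below. The array medians lay between 6.92 and 7.04 on the log2 scale. Centring each array on its median moved the share of calls that were higher from 54.2% to 39.5% between HCT-RNAi and WT and from 43.1% to 53.8% between ccr-1 and HCT-RNAi, and it shifted the median change of all probe sets in the first of these from -0.01 to -0.11.

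Both lines had more transcript of the first pathway enzymes than the wild type, HCT-RNAi more than ccr-1. CHS (AT5G13930), the entry enzyme, had log2 intensities of 9.78, 9.73 and 9.70 in WT, 12.96, 12.88 and 12.87 in HCT-RNAi, and 11.66, 11.72 and 11.77 in ccr-1. The 3 groups were apart from each other, with ccr-1 between WT and HCT-RNAi. CHS was 8.98-fold higher in HCT-RNAi (log2 change 3.17 ± 0.06, SE, n = 3 arrays per group, limma adjusted p = 3.04e-13) and 3.94-fold higher in ccr-1 (1.98 ± 0.06, adjusted p = 1.93e-11). In a whole stem, a larger share of cells that express a gene and more RNA per cell cannot be told apart. CHI (AT3G55120) had log2 intensities of 7.78, 7.68 and 7.69 in WT, 10.14, 10.23 and 10.27 in HCT-RNAi, and 9.28, 9.40 and 9.31 in ccr-1. The groups had the same order and did not overlap. CHI rose 5.64-fold in HCT-RNAi (2.49 ± 0.06, adjusted p = 3.24e-12) and 3.05-fold in ccr-1 (1.61 ± 0.06, adjusted p = 2.35e-10).

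The hydroxylases F3H and F3'H also rose in both lines, in the same order. F3H (AT3G51240) had log2 intensities of 9.22, 9.23 and 9.09 in WT, 12.32, 12.34 and 12.30 in HCT-RNAi, and 10.66, 10.63 and 10.72 in ccr-1. It was 8.82-fold higher than WT in HCT-RNAi (3.14 ± 0.06, adjusted p = 3.88e-13) and 2.81-fold higher in ccr-1 (1.49 ± 0.06, adjusted p = 3.39e-10). F3'H (AT5G07990) read 6.29, 6.72 and 6.46 in WT, 10.44, 10.43 and 10.49 in HCT-RNAi, and 8.34, 8.30 and 8.32 in ccr-1. Its WT arrays spread the most of any member in any group (SD 0.22), and they still lay below all arrays of both lines. The F3'H change in HCT-RNAi was the largest among the members, 15.6-fold (3.97 ± 0.09, adjusted p = 1.82e-12), against 3.55-fold in ccr-1 (1.83 ± 0.09, adjusted p = 2.66e-09).

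Flavonol synthase had another order. FLS1 (AT5G08640) had log2 intensities of 7.94, 8.00 and 7.94 in WT, 9.32, 9.40 and 9.44 in HCT-RNAi, and 9.76, 9.72 and 9.72 in ccr-1. Here the ccr-1 arrays, not those of HCT-RNAi, were the highest, and no 2 groups overlapped. FLS1 rose 2.68-fold in HCT-RNAi (1.42 ± 0.05, adjusted p = 2.13e-10) and 3.41-fold in ccr-1 (1.77 ± 0.05, adjusted p = 4.04e-11).

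Of the glycosyltransferases, UGT78D2 rose clearly in HCT-RNAi and UGT78D1 passed in neither line. UGT78D2 (AT5G17050) had log2 intensities of 8.92, 8.84 and 8.94 in WT, 10.48, 10.45 and 10.50 in HCT-RNAi, and 9.05, 9.02 and 9.08 in ccr-1. The HCT-RNAi arrays stood far above the rest, and the lowest ccr-1 array was just above the highest WT array. It was 2.98-fold higher in HCT-RNAi (1.57 ± 0.05, adjusted p = 6.50e-11), while its ccr-1 level stood 1.11-fold above WT (0.15 ± 0.05, adjusted p = 0.0295). That small rise no longer passed after median centring (0.12, adjusted p = 0.0804), nor without ccr-1 replicate 4 or 6 or WT replicate 7 or 8 (adjusted p = 0.0578, 0.0717, 0.0515 and 0.109). UGT78D1 (AT1G30530) had the same deposited value, 9.64 on the log2 scale, on all 3 WT arrays, 9.71, 9.68 and 9.97 in HCT-RNAi, and 9.50, 9.58 and 9.52 in ccr-1. Neither change from WT passed the test: it was 0.15 in HCT-RNAi (95% interval -0.0088 to 0.31, adjusted p = 0.0946) and -0.11 in ccr-1 (-0.26 to 0.05, adjusted p = 0.248). The HCT-RNAi value rested on replicate 3, the 9.97 array: without it the change was 0.06 (adjusted p = 0.399), and after median centring it was 0.05 (adjusted p = 0.538). It passed narrowly with a trended and robust variance (adjusted p = 0.0466) and without HCT-RNAi replicate 2 (0.20, adjusted p = 0.0465). In ccr-1 UGT78D1 passed in the test without shrinkage (adjusted p = 0.037), to which the WT arrays add a spread of 0.

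**Figure D1:**
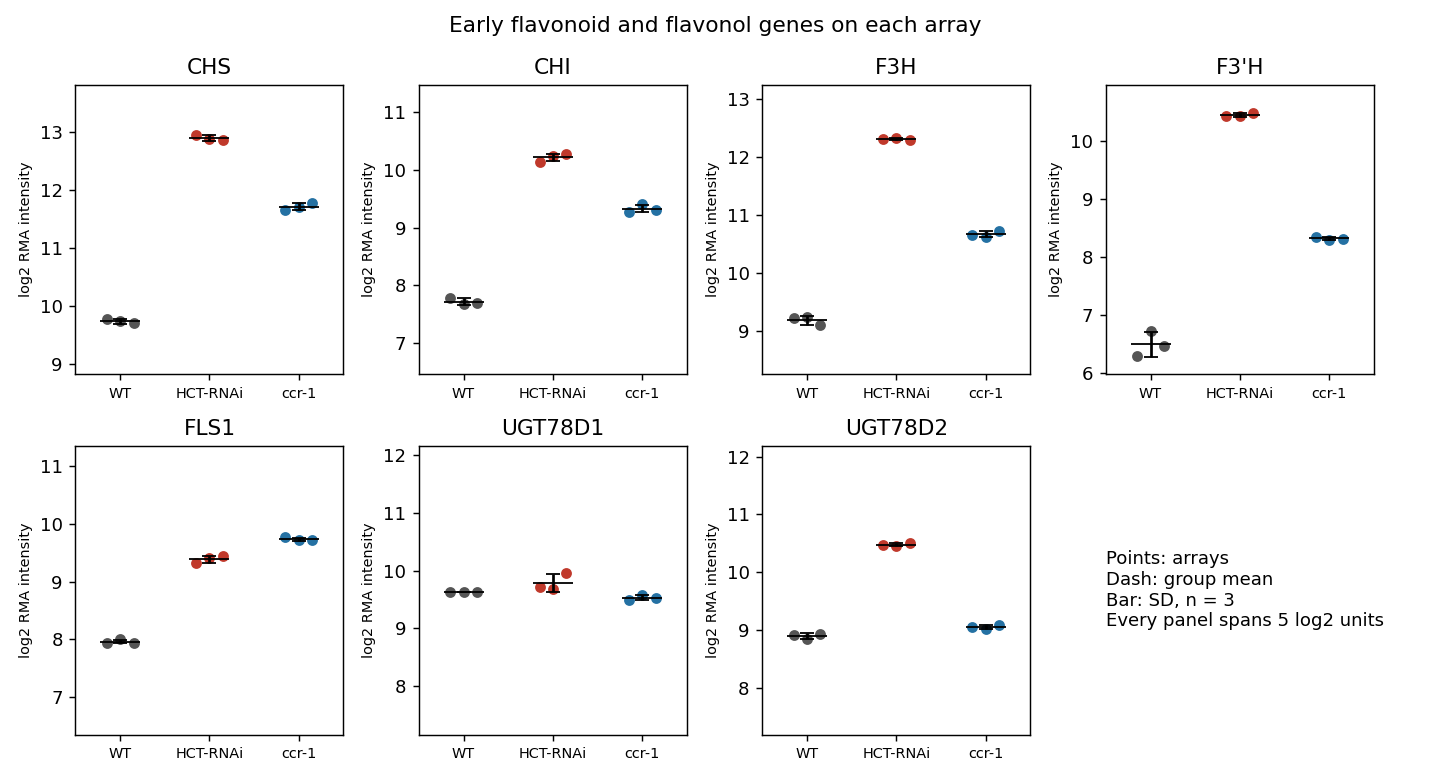
Log2 RMA intensity (vertical axis) of the 7 named genes on each of the 9 arrays, by group (horizontal axis), with dashes for group means and bars for SD (n = 3). CHS, CHI, F3H and F3'H step from WT through ccr-1 to HCT-RNAi, FLS1 is highest in ccr-1 (mean 9.73), UGT78D2 stands apart in HCT-RNAi (mean 10.48), and UGT78D1 stays between 9.50 and 9.97 on all arrays.

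By count, 6 of the 7 named members were called higher in HCT-RNAi (adjusted p under 0.05 over all probe sets), where 60.6% of all probe sets were called and 32.9% were called higher. All 6 were at least 2-fold higher, as were 5.06% of all probe sets. In ccr-1 6 of 7 were called higher, 5 of them at least 2-fold, where 54.9% of all probe sets were called, 24.7% higher, and 5.23% higher by at least 2-fold. The median change of the 7 was 2.49 in HCT-RNAi and 1.61 in ccr-1, against -0.01 and -0.04 over all probe sets. These counts are no independent evidence of a direction or of a 2-fold rise. The names of CHS, CHI, F3H, F3'H and FLS1 come from the authors' table alone, and most probe sets listed there changed on these arrays. Of the probe sets in that list, 92.0% were called in HCT-RNAi (46.2% higher) and 92.8% in ccr-1 (48.4% higher). Of its 3783 tested probe sets, 1150 had a call and a rise of 2-fold or more in HCT-RNAi, and 1187 in ccr-1. Over all probe sets these numbers were 1152 and 1189. Nearly all such probe sets were thus in the list, and 5.06% and 5.23% are no fair comparison for members named through it. None of the 7 members was called lower in either line, where 27.7% of all probe sets were lower in HCT-RNAi and 30.1% in ccr-1. UGT78D1 and UGT78D2 were named by the platform annotation, and UGT78D1 is not in the authors' table. Both comparisons use the same WT arrays. The groups did not overlap for any of the 7 members against WT in either line, as was the case for 66.6% of all probe sets in HCT-RNAi and 59.3% in ccr-1.

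The direct comparison of the lines asked whether their changes differ. In ccr-1, 6 of the 7 members were called lower than in HCT-RNAi and 1, FLS1, was called higher, where 58.9% of all probe sets were called, 33.6% lower and 25.4% higher. In the authors' list 90.0% were called, 53.3% higher. The lines did not overlap for any of the 7, as for 63.0% of all probe sets. F3'H was 4.40-fold lower in ccr-1 (-2.14 ± 0.09), F3H 3.14-fold lower (-1.65 ± 0.06), UGT78D2 2.69-fold lower (-1.43 ± 0.05), CHS 2.28-fold lower (-1.19 ± 0.06) and CHI 1.85-fold lower (-0.89 ± 0.06). The UGT78D1 difference was -0.25 ± 0.07 (adjusted p = 0.00891), and it did not pass in the test without shrinkage (adjusted p = 0.093). Without HCT-RNAi replicate 3 it was -0.17 (adjusted p = 0.0305). FLS1 was 1.27-fold higher in ccr-1 (0.35 ± 0.05, 95% interval 0.23 to 0.47, adjusted p = 0.000122), and this direction and call were found under all 15 alternatives run (0.31 to 0.42).

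**Figure D2:**
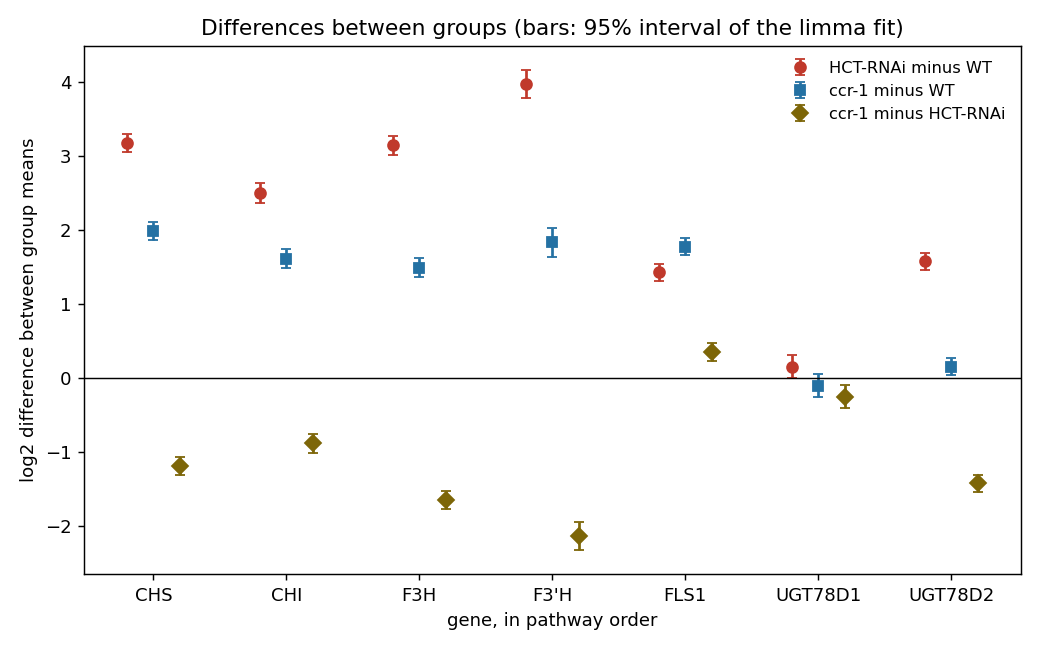
Log2 difference between group means (vertical axis) for the 7 named genes in pathway order (horizontal axis), for HCT-RNAi minus WT (circles), ccr-1 minus WT (squares) and ccr-1 minus HCT-RNAi (diamonds), with 95% intervals of the limma fit. The diamond of FLS1 is the only one above 0 (0.35), and that of F3'H is the lowest (-2.14).

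Differences between probe sets within an array do not depend on the scaling of that array, so they were used to follow unequal change at the branch point. The log2 difference of FLS1 from F3H, the enzyme that makes its substrate, was -1.27, -1.23 and -1.15 on the WT arrays, -3.00, -2.94 and -2.86 in HCT-RNAi, and -0.89, -0.91 and -1.002 in ccr-1. Relative to WT, FLS1 thus fell behind F3H by 1.72 log2 units in HCT-RNAi and gained 0.28 on it in ccr-1, and the 3 groups did not overlap. The gain in ccr-1 was not seen against the entry enzyme: FLS1 less CHS changed by -1.74 in HCT-RNAi and by -0.21 in ccr-1. Against DFR, which competes with FLS1 for dihydroflavonols, the FLS1 difference was 1.25, 1.61 and 1.65 in WT, -2.78, -2.77 and -2.67 in HCT-RNAi, and -0.10, -0.14 and -0.12 in ccr-1. It moved toward DFR in both lines, by -4.24 in HCT-RNAi and -1.62 in ccr-1. The difference of UGT78D2 from UGT78D1 changed by 1.43 in HCT-RNAi and 0.25 in ccr-1, and that of UGT78D2 from F3H by -1.57 and -1.34. For F3'H less F3H the change was 0.82 and 0.34, and for CHS less CHI it was 0.67 and 0.37. A two-sided exact permutation test gave p = 0.1 for each of these changes and for the 3 comparisons of each of 7 pairs computed; with 3 arrays against 3 this is the smallest p possible, so none can pass 0.05.

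**Figure D3:**
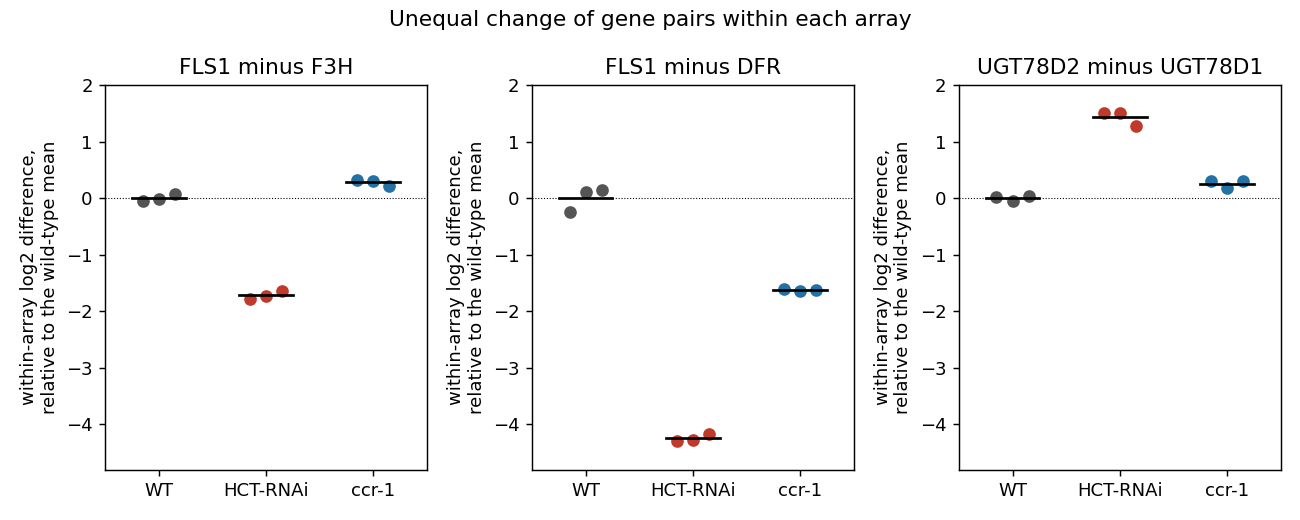
Within-array log2 difference of 3 gene pairs (vertical axis), set relative to the WT mean of each pair, by group (horizontal axis), with points for arrays and lines for means. FLS1 less F3H is lower by 1.72 in HCT-RNAi and higher by 0.28 in ccr-1, FLS1 less DFR is lower in both lines, and UGT78D2 less UGT78D1 is higher mainly in HCT-RNAi (1.43).

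Other genes of the core and flavonol pathway were counted beside the members. Most named genes of this list and of the pathway lists below were in the authors' table, where most probe sets were called. Over all probe sets, 32.9% were called higher and 27.7% lower in HCT-RNAi, and 24.7% and 30.1% in ccr-1. Of 9 listed, 4 were named: CHIL, UGT89C1, UGT78D3 and BGLU15. Of these, 3 rose in each line and UGT78D3, a relative of UGT78D2, did not pass (0.12 in HCT-RNAi and 0.13 in ccr-1). UGT78D3 was dim on all arrays (log2 4.45 to 4.89) and had no detection calls, so its lack of a call says little. CHIL (AT5G05270), a chalcone isomerase-like protein that raises flavonoid output without being an isomerase, rose by 2.13 ± 0.06 log2 units in HCT-RNAi and by 1.39 ± 0.06 in ccr-1. UGT89C1, which adds rhamnose to flavonols at a further position, rose by 1.23 and 1.02. BGLU15 (AT2G44450), a glucosidase that acts on flavonol glycosides, was at 0.29 ± 0.09 in HCT-RNAi and 1.55 ± 0.09 in ccr-1, with a direct difference of 1.26 ± 0.09 in favour of ccr-1 (adjusted p = 1.05e-07). The HCT-RNAi call of BGLU15 was lost after median centring (0.19, adjusted p = 0.0683), in the test without shrinkage (adjusted p = 0.124) and without WT replicate 9 (0.18, adjusted p = 0.0594).

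The anthocyanin and proanthocyanidin enzymes follow the early steps in the pathway. Of 11 listed, 6 were named, of which 5 rose and BAN fell in HCT-RNAi, and 6 rose in ccr-1, with median changes of 4.13 and 1.22. DFR had log2 intensities of 6.69, 6.40 and 6.29 in WT, 12.10, 12.17 and 12.11 in HCT-RNAi, and 9.86, 9.86 and 9.84 in ccr-1, a rise of 5.67 ± 0.09 and of 3.40 ± 0.09. The other 4 that rose in HCT-RNAi were TT19 (4.80), UGT79B1 (4.40), UGT75C1 (3.86) and 5MAT (3.16), whose ccr-1 changes were 2.36, 1.57, 0.88 and 0.31. BAN, the anthocyanidin reductase of the seed coat, was at -0.32 in HCT-RNAi and at 0.63 in ccr-1. It was dim on all arrays (log2 4.61 to 5.84) and had no detection calls. The fall in HCT-RNAi did not pass in the test without shrinkage (adjusted p = 0.101) or without HCT-RNAi replicate 1 or WT replicate 8 (adjusted p = 0.0618 and 0.0646). All 4 named activators of 9 listed rose in both lines, with medians of 3.73 and 0.75. PAP1 rose by 5.03 and 2.82, PAP2 by 4.34 and 0.54, and EGL3 by 1.28 and 0.36. TT8, called present on no WT array, rose 8.70-fold in HCT-RNAi and 1.94-fold in ccr-1 (log2 changes 3.12 and 0.96). The lowest TT8 changes among the 15 alternatives were 2.35 and 0.59. All 4 were named through the authors' table alone, where 46.2% of probe sets were called higher in HCT-RNAi and 48.4% in ccr-1. This count is thus no independent evidence of a direction.

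Of 10 listed repressors and negative regulators, 5 were named. LBD38, a repressor of anthocyanin genes that responds to nitrogen, was the lowest in both lines (-3.28 ± 0.07 in HCT-RNAi and -1.10 ± 0.07 in ccr-1). KFB-CHS (AT1G23390), an F-box protein that directs the degradation of CHS protein, fell by 2.26 ± 0.06 in HCT-RNAi and by 0.79 ± 0.06 in ccr-1, in the order opposite to that of CHS. On the log2 scale MYB4, a repressor of phenylpropanoid genes, rose by 0.56 in HCT-RNAi and fell by 0.78 in ccr-1, with -1.34 ± 0.09 for ccr-1 less HCT-RNAi (adjusted p = 7.41e-08). LBD37 fell by 1.50 in HCT-RNAi and rose by 0.43 in ccr-1. LBD39 rose by 1.02 in ccr-1 and was at -0.14 in HCT-RNAi without a call, which it gained after median centring (-0.24, adjusted p = 0.0177).

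Of 8 listed genes at the entry of the phenylpropanoid pathway, PAL3, PAL4 and 4CL3 were named. The ligase 4CL3, the isoform tied to flavonoids, rose by 1.55 ± 0.08 in HCT-RNAi and 1.39 ± 0.08 in ccr-1, and the difference between the lines did not pass the test (-0.16, adjusted p = 0.0946; without ccr-1 replicate 4, -0.21, adjusted p = 0.0464). The ammonia-lyase PAL4 fell by 2.27 and 0.96 on the log2 scale. PAL3 fell by 1.05 in HCT-RNAi; in ccr-1 it was at -0.17 (adjusted p = 0.042), a call lost in 9 of the 15 alternatives, with -0.11 (adjusted p = 0.17) without ccr-1 replicate 4. Of 10 listed light and UV-B signalling genes 5 were named, 3 higher and 2 lower in HCT-RNAi, and 3 higher, 1 lower and 1 not called in ccr-1. ELIP1, a light-stress protein of the chloroplast, rose by 3.47 and 1.77, while its relative ELIP2 fell by 1.21 in HCT-RNAi and rose by 0.85 in ccr-1. BBX22, which promotes light responses, was at 1.98 in HCT-RNAi and 0.12 in ccr-1 (adjusted p = 0.335). RUP1, a negative regulator of UV-B signalling, was called present on no HCT-RNAi array. The RUP1 level was 1.61-fold lower there (log2 change -0.69, 95% interval -0.90 to -0.48) and 0.42 log2 units higher in ccr-1. HYH, a relative of HY5, was at 0.28 and -0.31. The ccr-1 call of HYH was lost in the test without shrinkage (adjusted p = 0.0587).

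**Figure D4:**
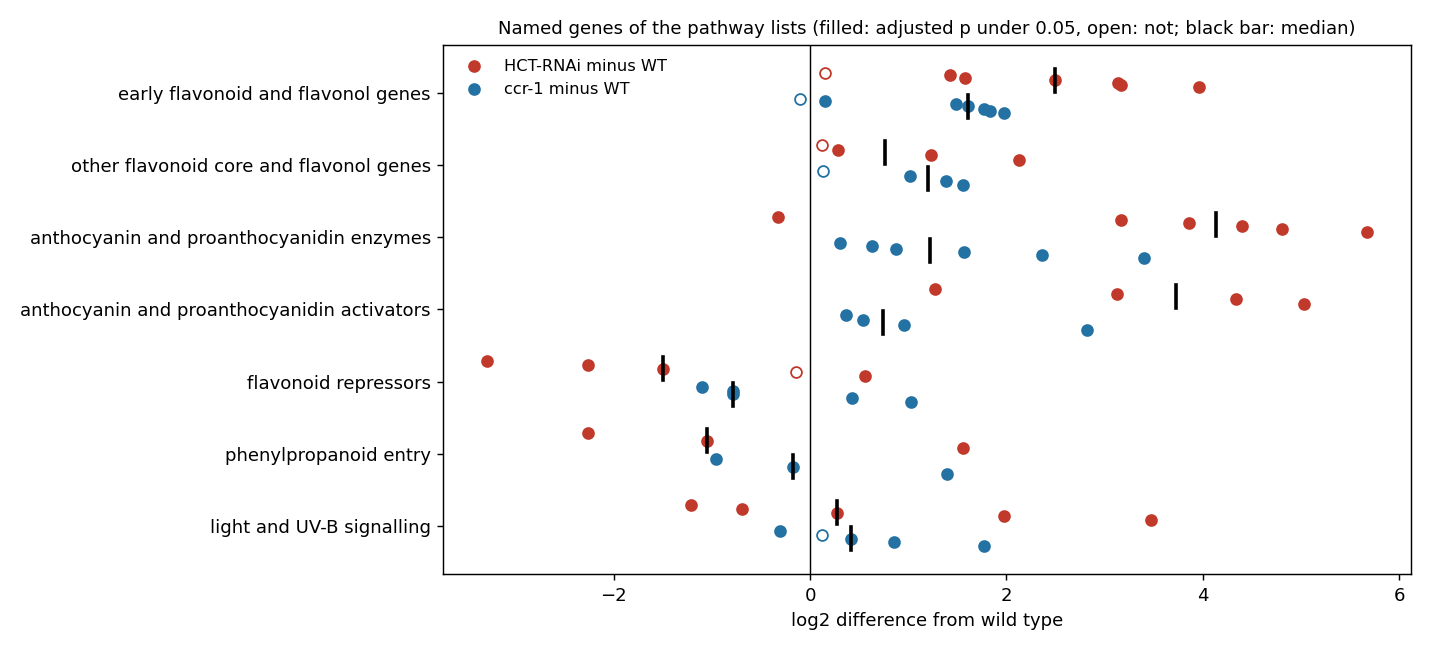
Log2 difference from wild type (horizontal axis) of each named gene in 7 lists (vertical axis), in HCT-RNAi (red) and ccr-1 (blue), filled where the adjusted p was under 0.05, with black bars for list medians. The early genes have medians of 2.49 and 1.61, the anthocyanin enzymes 4.13 and 1.22, and the repressors -1.50 and -0.78.

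The profiles over the 9 arrays, each centred on its own mean, were set against those of all other named probe sets by their root-mean-square difference on the log2 scale, as a description. The 5 genes outside the members closest to CHS were HAI2 (0.08), CYP81D11 (0.11), AT1G52000 (0.11), SUS3 (0.12) and SPP2 (0.14). Of the members, F3H was the closest to CHS, in place 19 of 14883 (0.23), followed by CHI in place 30 (0.28) and F3'H in place 79 (0.43). FLS1 (0.78) and UGT78D2 (0.81) were in places 455 and 537. For FLS1, shown because its order differed, which was known when it was picked, the closest was RD20 (0.05), a drought-induced caleosin gene, and its closest member, CHI, was in place 1209 (0.55).

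Markers of other organs were read beside these results. All named floral, seed storage, epidermis, xylem and clock genes were in the authors' table, as were 2 of the 4 named pollen and tapetum markers. Most probe sets of that table were called: 92.0% in HCT-RNAi, 92.8% in ccr-1 and 90.0% between the lines. Over all probe sets these shares were 60.6%, 54.9% and 58.9%. The counts below are thus not those of unselected panels. Of 9 named floral organ markers (11 listed), 9 rose in HCT-RNAi (median 1.96) and 9 in ccr-1 (median 3.18), and their summed intensity was 267 to 283 on WT arrays, 1019 to 1046 on HCT-RNAi arrays and 2994 to 3130 on ccr-1 arrays. In WT 3 of the 9, AP3, SHP2 and STK, were called present on no array. SEP2, the floral marker that rose the most, was 3.32 and 4.97 higher. The 10 seed storage markers summed to 197 to 211 in WT, 192 to 199 in HCT-RNAi and 84375 to 87227 in ccr-1. All 10 rose in ccr-1 (median 8.84), SESA2 the most (9.79). In HCT-RNAi 7 of them did not pass (SESA2 at -0.02), OLEO1 was 0.28 higher, and CRU3 was 0.29 lower together with CRU2. In HCT-RNAi SESA1, CRA1 and OLEO2 were called present on no array, as they and 2 more were in WT. Of 4 named pollen and tapetum markers (7 listed), 1 was higher, 1 lower and 2 not called in HCT-RNAi (median 0.05). In ccr-1 2 were higher, 1 lower and 1 not called (median 0.88). AGP11 rose by 0.51 and 1.93, and TUA1 fell by 0.85 and 0.25. The list summed to 811 to 824, 577 to 594 and 1178 to 1273 in WT, HCT-RNAi and ccr-1. TUA1 was the brightest of the 4 in WT and HCT-RNAi (mean log2 9.22 and 8.37), so those sums depend most on it. Epidermis markers, of which 5 of 6 were named, were split in HCT-RNAi (3 higher, 2 lower; PDF1 at 3.05 and CER1 at -1.08) and all higher in ccr-1 (PDF1 at 3.41, CER1 at 0.34), and summed to 5567 to 5623, 3848 to 4055 and 7802 to 8503. All 5 named xylem markers fell in both lines, LAC4 the most (-2.48 and -2.09), and their sum was 19986 to 21729, 6466 to 7288 and 6422 to 6678. Of 8 listed clock genes 4 were named, while CCA1, LHY, PRR9 and TOC1 had no named probe set, so the 4 do not stand for the whole clock. All 4 rose in HCT-RNAi, led by ELF4 (1.23), and in ccr-1 2 rose, PRR7 fell by 0.94 and 1 did not pass. Between the lines, all named floral and seed markers were higher in ccr-1, and all 4 named clock genes were lower in ccr-1 (median -1.04). The part of these organs, or of the hour of harvest, in the flavonoid results was not tested.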

How the data were processed

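RNA of 9 arrays was measured, from 3 groups taken from the labels. The intensities were deposited by the authors as probe set summaries on a linear scale. Per the submitters' processing notes the tools were RMA and MAS5; no settings or genome build were stated. RMA makes array distributions alike and compresses changes near the floor. A second table deposited by the authors, of 3785 probe sets, gives present, marginal or absent calls. The values were taken to log2 (the plan had assumed deposited log2 values). Without the 64 controls, 22746 probe sets were fitted with limma 3.58.1 in R 4.3.3 (a mean per group, eBayes). P-values were adjusted by Benjamini-Hochberg over all probe sets and called under 0.05. The code was tested on simulated data. The number of arrays limits the precision. Where a group had no present call, its level was the higher of its own and the lowest present signal on each array. For TT8 and RUP1 the group's own level was the higher, so the folds given are those of the fit. Alternatives were median centring, a filter (log2 above 6 on 3 arrays), a trended robust variance, fits of 2 groups, log2(value + 16), a test without shrinkage, and leaving out each array.

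The members and lists were chosen with earlier results of these data known. Named genes were all members, a fixed set of pathway genes, and from each list the called gene with the largest change in each direction and line (34 in all). A further 13 (KFB-CHS, UGT89C1, UGT78D3, BBX22, LBD37, PAL3, TT19, UGT79B1, UGT75C1, 5MAT, PAP2, EGL3 and RUP1), the absent markers and CRU2 were named after their values were seen. Probe sets were named by the platform annotation (13129) or else the authors' table (1755), 14884 in all, with symbols from a RefSeq gene table; 31 for which these differed were left unnamed.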

Additional observations from a re-analysis of the deposited data

Results flagged for a closer look

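The change against wild type differed between the lines for all 7 named early flavonoid and flavonol genes, as tested by the direct limma contrast of ccr-1 with HCT-RNAi. The log2 difference was -1.19 for CHS, -0.89 for CHI, -1.65 for F3H, -2.14 for F3'H, 0.35 for FLS1, -0.25 for UGT78D1 and -1.43 for UGT78D2. For UGT78D1 neither change against wild type passed (limma adjusted p = 0.0946 in HCT-RNAi and 0.248 in ccr-1). Its difference between the lines did not pass in the test without shrinkage (adjusted p = 0.093). The direct contrast called 58.9% of all probe sets and 90.0% of those in the authors' table, which holds 6 of the 7 genes. The count of 7 is thus no independent evidence of a difference.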

How the results depend on the processing

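The counts of called members moved by less than 1.5 times under all 15 alternatives in the 3 comparisons. The median change of the members went from 2.49 to 2.39 with median centring and to 2.41 with log2(value + 16) in HCT-RNAi, from 1.61 to 1.54 with log2(value + 16) in ccr-1, and from -1.19 to -1.11 with median centring between the lines. Of 141 changes of named genes (47 genes in 3 comparisons), 126 kept their direction and side of the threshold throughout. The 2 that changed sign had no call: SESA2 in HCT-RNAi, at -0.02 with all arrays, -0.0609 to 0.0207 when 1 array was left out, positive without WT replicate 7 (0.0063) or HCT-RNAi replicate 1, and UGT78D3 between the lines, at 0.0046 with all arrays and -0.0356 to 0.0552 when 1 was left out, negative without HCT-RNAi replicate 1 (-0.0057) or 2 or ccr-1 replicate 5 (-0.0206). Changes of OLEO1, PRR7 and CRU3 in HCT-RNAi lost their call in some alternatives (highest adjusted p = 0.055, 0.0792 and 0.0729); the cause was not tested. BAN and UGT78D3 were removed by the filter on dim probe sets. No paired analysis was possible because the groups share no replicate numbers.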

Other observations

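The identical UGT78D1 values on the 3 WT arrays were not alone: 91 of 22746 probe sets had the same deposited value on all WT arrays, 129 on all HCT-RNAi arrays and 119 on all ccr-1 arrays, while no pair of arrays was identical over all probe sets. For such a probe set the spread within the group is 0 as deposited, so a test that uses only its own spread can understate the error. Values tied on some but not all arrays of a group also occurred, as for DFR (9.8607) and TT19 (9.2604) in ccr-1. Such partial ties were not counted.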
